A study of Mus musculus with 4 samples.

Results

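The Chd genes encode chromatin remodellers that use ATP to move nucleosomes, and Chd4 was the gene depleted in the cells studied here. The 10 genes Chd1 to Chd9 and Chd1l were followed through every probe set that the array's annotation assigns to 1 of them alone. This gave 23 probe sets among 45037 that are not array controls, for 10 of 18193 genes with a probe set of their own. RNA came from J1 mouse embryonic stem cells of the line Chd4i-1, which carries a Tet-on inducible RNAi construct against Chd4. The Chd4 RNAi group (n = 2 arrays) received 5 ng/ml doxycycline, the inducer, for 3 days, and the control group (n = 2) was the same line without doxycycline. Both groups therefore carry the construct, and both grew on gelatin with 15% fetal bovine serum and 1000 U/ml leukaemia inhibitory factor, which maintains these cells undifferentiated. The duplicates are described as biological, and the labels do not say whether the line is 1 clone. Doxycycline itself, RNAi in general and loss of Chd4 cannot be told apart in this design.

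Chd proteins belong to the Snf2 family of ATPases, and most carry tandem chromodomains in front of the ATPase, which contact histone tails or nucleosomal DNA. Chd4, Chd3 and Chd5 also carry PHD fingers and serve as alternative ATPases of NuRD, the nucleosome remodelling and deacetylase complex, in which remodelling is joined to histone deacetylation. Chd4 is the most studied of them in embryonic stem cells, where NuRD tunes the expression of pluripotency and lineage genes. Chd1 and Chd2 act with transcribing RNA polymerase II, Chd6 to Chd9 form a further subfamily, and Chd1l, also called Alc1, has a macro domain in place of chromodomains and acts in the response to DNA damage.

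Array signals are MAS5 summaries on a linear scale, 1 per probe set, and the level of a probe set can be compared between arrays but not with that of another probe set. Groups were compared on log2 signal with limma, a linear model whose spread for each probe set is steadied by that of probe sets of like brightness. The filter on dim probe sets kept the 27022 in the top 60% by mean log2 signal over the 4 arrays, equal to a signal of 42.4 or more. These were tested, and a probe set is called where its p, adjusted over all of them, is under 0.05. Of these 14.2% were called, 7.46% higher and 6.77% lower after RNAi. The count over the array, 3847, was 2430 without control replicate 2. Without the intensity trend in limma's variance model no probe set on the array was called. In that fit 5828 probe sets had an unadjusted p under 0.05, all 7 called Chd probe sets among them, at adjusted p values of 0.0835 to 0.197. Array medians lay between 73.4 and 79.4, and Pearson's r across the 27022 probe sets tested was 0.984 between the control arrays, 0.982 between the RNAi arrays and 0.968 to 0.969 between the groups, as a description of the arrays only. Of 8 embryonic stem cell markers all were above the filter on dim probe sets. Their summed signal was 105059 and 107097 on the control arrays, against 108677 and 106412 after RNAi, so the sums overlapped, but single markers moved in both directions. Such sums weigh bright probe sets most, here those of Dppa5a and Zfp42. They are given here and below as descriptions only. By brightest probe set Dppa5a and Utf1 rose (log2 0.19 and 0.31, adjusted p = 0.0161 and 0.0142) and Esrrb fell (log2 -0.29, adjusted p = 0.00722), while Pou5f1, Sox2, Nanog, Zfp42 and Tdgf1 were not called. These are 3 of 8, where 18.1% of all genes were called by their brightest probe set. The call of Dppa5a ended under quantile normalization (log2 0.059, adjusted p = 0.240) and without control replicate 1 or RNAi replicate 1 (adjusted p = 0.103 and 0.0629). That of Utf1 ended without control replicate 2 (adjusted p = 0.117). Of the defining markers of other cell types, 4 of 8 for fibroblasts, 2 of 8 for primitive endoderm, 3 of 8 for trophectoderm and 3 of 7 for neural cells were under the filter.

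The depleted gene was lower after RNAi at all 3 of its probe sets, with 48.5% to 65.0% of the control level left. At probe set 1438476_a_at both control arrays, with 918 and 814, stood above the RNAi arrays, with 445 and 394. The groups are well apart there, since the gap within each group was 0.17 to 0.18 on the log2 scale and the difference between them -1.05 ± 0.12 (SE). The 95% confidence interval of the level left was 40.3% to 58.2% of control (adjusted p = 0.000244, limma). Probe set 1436343_at gave 894 and 822 against 551 and 420, with the lower RNAi value on the second array. Its level left was 56.1% of control (interval 45.6% to 69.1%; adjusted p = 0.00232).

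The brightest Chd4 probe set, 1451295_a_at, gave 2215 and 1826 on the control arrays, against 1155 and 1480 after RNAi. Here the lower RNAi value was on the first array, opposite to the other pair of probe sets, and the gaps within the groups were 0.28 and 0.36 against a difference of -0.62. The level left was 65.0% (interval 54.0% to 78.3%; adjusted p = 0.00638), and its interval overlaps those of both other probe sets. In bulk RNA, fewer cells with Chd4 transcript and less transcript per cell cannot be told apart. Averaged over its 3 probe sets and fitted over all genes, Chd4 had a log2 difference of -0.83 ± 0.092 (adjusted p = 0.00258).

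**Figure D1:**
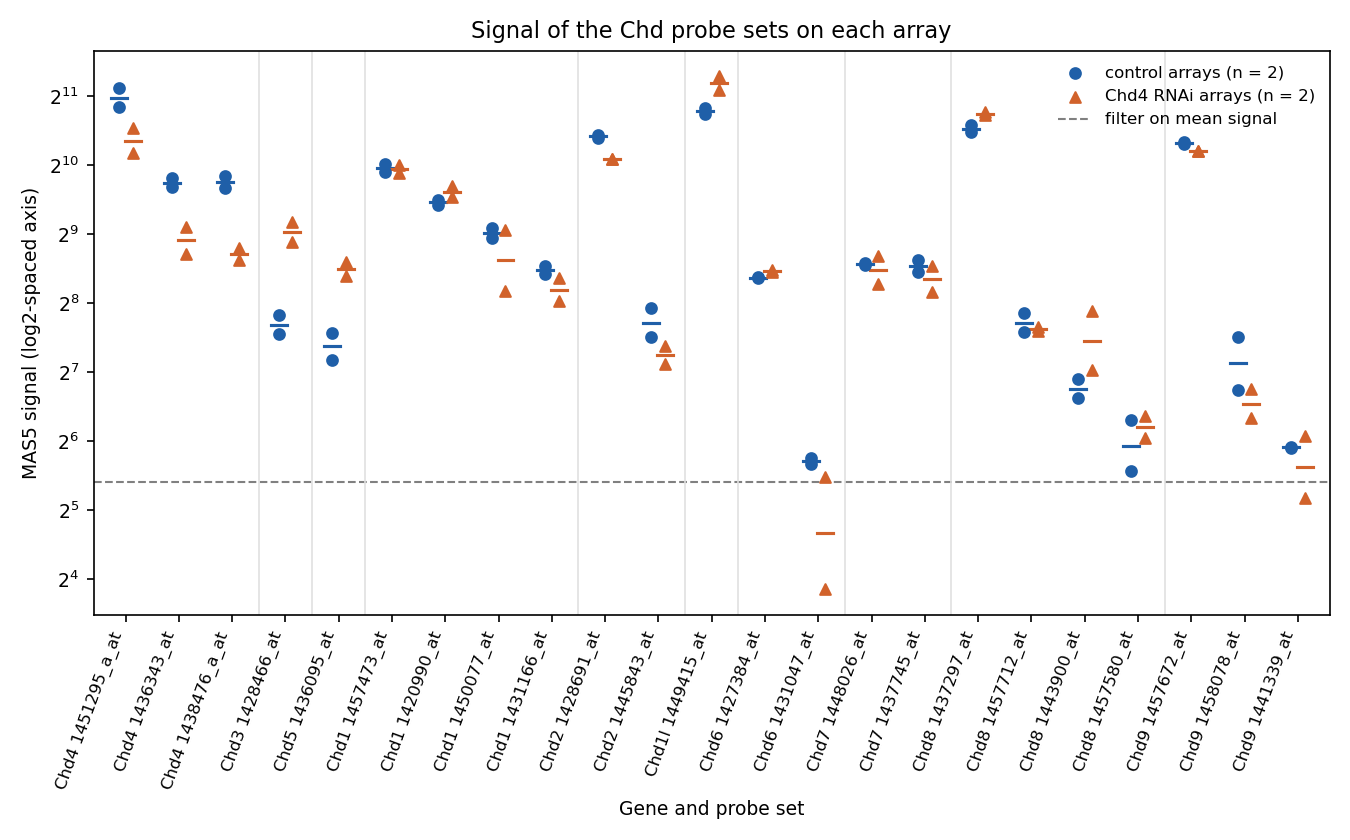
MAS5 signal (vertical axis, log2 spacing) of the 23 Chd probe sets on each of the 4 arrays, circles for control and triangles for Chd4 RNAi, with short lines at the group means of log2 signal and a dashed line at the filter (42.4). The groups are clearly apart at the 3 Chd4 probe sets, Chd3, Chd5, Chd1l and 1 of the 2 Chd2 probe sets, while the 1 Chd6 probe set under the filter falls mainly through a single RNAi array.

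The promoter windows of Chd4 and Chd5 are shown because these are the depleted gene and a NuRD ATPase gene that rose. They run from 250 to 51 bases before an annotated start, 5′ to 3′ on the gene's strand, with CpG dinucleotides in capitals, and come from RefSeq (GRCm38.p6). RefSeq entries were matched by symbol for 6 of the 10 genes, and Chd3 was not among them. The window of Chd4 is chr6:125095731-125095930 on the plus strand and that of Chd5 is chr4:152338401-152338600 on the plus strand.
Chd4: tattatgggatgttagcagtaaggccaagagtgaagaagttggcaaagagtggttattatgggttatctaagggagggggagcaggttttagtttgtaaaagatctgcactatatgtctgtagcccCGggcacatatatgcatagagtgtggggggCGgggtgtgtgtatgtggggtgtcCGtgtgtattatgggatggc
Chd5: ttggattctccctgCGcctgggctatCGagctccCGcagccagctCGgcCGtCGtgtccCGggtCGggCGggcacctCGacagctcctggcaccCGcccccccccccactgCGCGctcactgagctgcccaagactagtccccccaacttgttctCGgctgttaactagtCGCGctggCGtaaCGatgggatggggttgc

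The Chd5 window held 18 CpGs and the Chd4 window 3, beside a median of 4 over 32841 windows of 200 bases in the same table. A second annotated Chd4 start lies downstream, and the window before it held 17, close to the 18 of Chd5. The difference in CpG count therefore holds only for the printed Chd4 start. The motif GGGCGG, on either strand and known as the GC box, occurred 2 times in the Chd5 window and 1 time in that of Chd4, and 24.6% of all windows hold it. CCAAT and TATAAA, each on either strand, occurred in neither printed window and are held by 28.4% and 9.1% of all windows. The window before the second Chd4 start held the GC box 3 times and CCAAT 1 time. The motif counts of Chd4 therefore also hold only for the printed start. Chd6, which did not pass the test, had a window like that of Chd5, with 16 CpGs.

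Chd3 and Chd5, the other NuRD ATPase genes, were higher on both RNAi arrays and showed the largest rises among the Chd genes tested. Chd3 read 227 and 188 on the control arrays, against 578 and 473 after RNAi (probe set 1428466_at). The lowest RNAi value was above both controls, and the gaps within the groups were 0.27 and 0.29 against a log2 difference of 1.34 ± 0.17 (SE). The rise was 2.53-fold, at 197% to 326% of control by its 95% confidence interval (adjusted p = 0.000389).

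Chd5, a remodeller known from neurons and testis, read 145 and 190 on the control arrays, against 386 and 337 after RNAi (probe set 1436095_at). The groups were apart by more than the control gap of 0.39, with a log2 difference of 1.12 ± 0.19 (SE). The rise was 2.17-fold, at 163% to 290% of control (adjusted p = 0.00286). The intervals of the rises of Chd3 and Chd5 overlap, and each gene rests on 1 probe set.

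Markers of other cells moved beside these rises, and their part in them was not tested. Summed over 7 neural markers, the signal was 1951 and 1888 on the control arrays, against 2133 and 2127 after RNAi. Of the 4 neural markers above the filter 1 rose by limma, the neuronal tubulin gene Tubb3, from 1276 and 1161 to 1464 and 1539 (adjusted p = 0.0385). Tubb3 gave most of the neural sum on each array. Sox1 read 129 and 183 on the control arrays, against 21.3 and 5.40 after RNAi. Both its control signals were above 42.4, the filter. Its low RNAi signals put its mean log2 signal over the 4 arrays under that filter, so Sox1 was not tested. Pax6 and Nes had log2 differences of -0.42 and -0.22 and Map2 one of 0.35, none of them called. Dcx and Neurog2 were under the filter, with log2 differences of 1.12 and 0.89 and groups that overlap. Tubb3 was no longer called when control replicate 2, RNAi replicate 1 or RNAi replicate 2 was left out (adjusted p = 0.222, 0.0514 and 0.128). The sums were 2739 and 2716 against 5177 and 5495 for 8 trophectoderm markers, 3565 and 3548 against 2914 and 2389 for 8 fibroblast markers, and 1700 and 1818 against 2271 and 2306 for 8 primitive endoderm markers. Of the markers above the filter, 2 of 5 rose and 0 fell by limma for trophectoderm (2 and 0 also at an unadjusted p under 0.05), 1 of 4 rose and 1 fell for fibroblasts and 1 of 6 rose and 1 fell for primitive endoderm. Over all genes by brightest probe set 10.3% rose and 7.79% fell. The trophectoderm genes that rose were Tfap2c and Krt18 (log2 1.39 and 1.15), while Krt8, Eomes and Hand1 were not called. Together Tfap2c and Krt18 gave most of the trophectoderm sum on each array. Cdx2, Gata3 and Elf5 were under the filter and not tested, with log2 differences of 1.00, 2.07 and -2.35. Thy1 rose (log2 1.61) and Vim fell (log2 -0.78) for fibroblasts, and Vim gave most of the fibroblast sum on each array. Sparc rose (log2 0.66) and Lama1 fell (log2 -0.54) for primitive endoderm, and Sparc gave most of that sum on each array. Only 1 of the 2 other tested Sparc probe sets had the same sign. Gata4, Gata6, Dab2 and Pdgfra were not called there, and Sox17 and Foxa2 were under the filter. The call of Lama1 ended when control replicate 1, control replicate 2 or RNAi replicate 2 was left out (log2 -0.53, -0.55 and -0.43).

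Chd1l rose by less. Its signals were 1808 and 1703 on the control arrays, against 2170 and 2489 after RNAi (probe set 1449415_at), without overlap between the groups. The log2 difference of 0.41 ± 0.084 (SE) corresponds to a 1.32-fold rise, at 117% to 150% of control (adjusted p = 0.00851). Against a change of 1.2-fold instead of any change, the test gave an adjusted p of 0.514 for Chd1l, 0.132 for Chd4 probe set 1451295_a_at and 1 for Chd2, and passed the 4 other called probe sets.

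Chd2 was the only Chd gene besides Chd4 with a called fall over all 4 arrays. Probe set 1428691_at read 1379 and 1344 on the control arrays, against 1091 and 1091 after RNAi, which lie unusually close together. The log2 difference was -0.32 ± 0.083 (SE), a 1.25-fold fall (adjusted p = 0.0259). This call ended when any 1 of the 4 arrays was left out, with adjusted p values of 0.126 and 0.0833 without control replicate 1 and 2 and of 0.0608 and 0.0583 without RNAi replicate 1 and 2. Its size hardly moved, from -0.30 to -0.34. The dimmer Chd2 probe set 1445843_at read 181 and 243 against 166 and 139, also lower on both RNAi arrays, with a log2 difference of -0.47 and a wide interval of -0.96 to 0.025 (adjusted p = 0.200).

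Chd1, needed in embryonic stem cells for their open chromatin, showed no called difference at any of its 4 probe sets. Its brightest probe set, 1457473_at, read 951 and 1033 on the control arrays, against 941 and 1020 after RNAi. The ranges nearly coincide, and the interval of the log2 difference, -0.23 to 0.19, bounds a change at that probe set to between 85.4% and 114% of control. Probe set 1420990_at had a difference of 0.16 and probe sets 1450077_at and 1431166_at of -0.40 and -0.28, so the probe sets differ in sign. At 1450077_at the controls read 543 and 494 and the RNAi arrays 290 and 532. The first RNAi array stands apart there, and without RNAi replicate 2 the probe set was called at a log2 difference of -0.84 (adjusted p = 0.00323), whereas without RNAi replicate 1 the difference was 0.038.

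**Figure D2:**
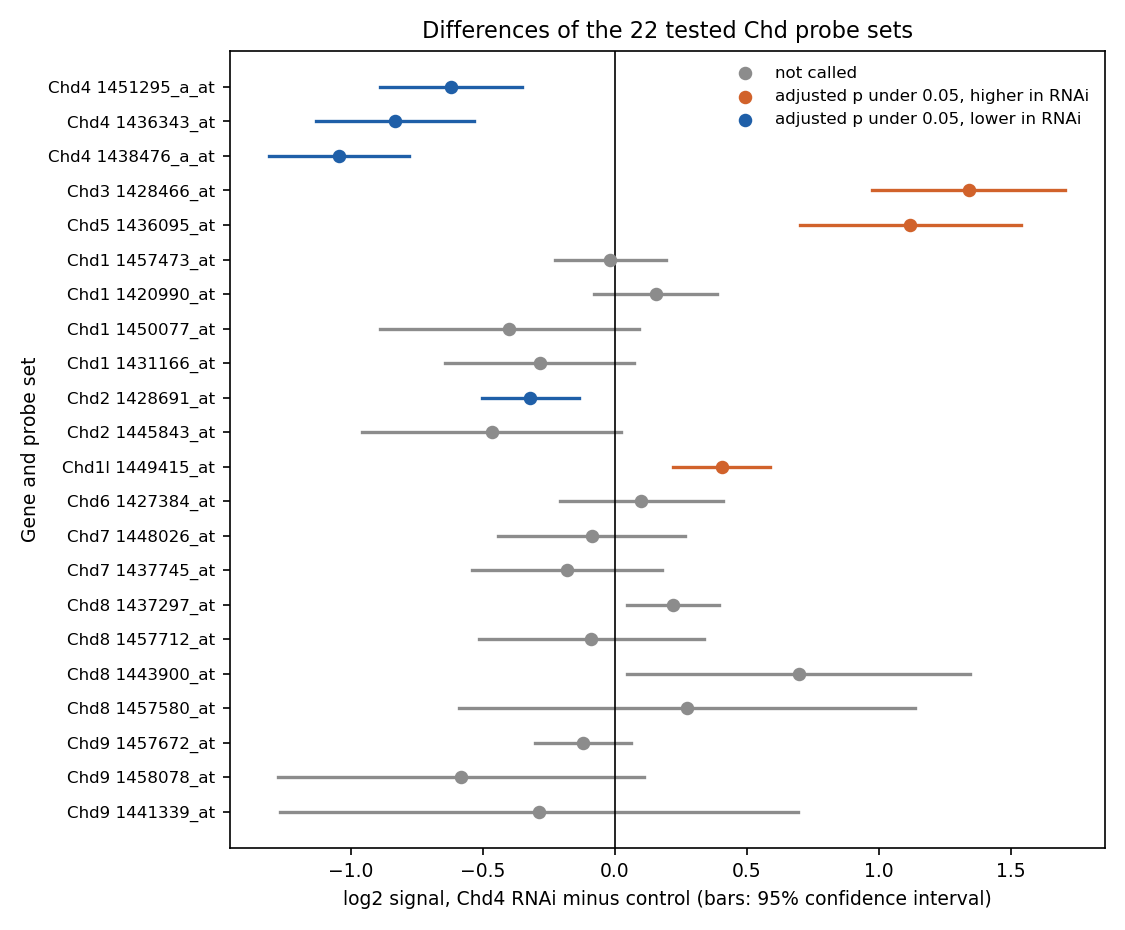
Log2 difference in signal, Chd4 RNAi minus control, of the 22 tested Chd probe sets with 95% confidence intervals from limma (2 arrays per group). The 3 Chd4 probe sets and Chd2 1428691_at lie below 0 and Chd3, Chd5 and Chd1l above it with an adjusted p under 0.05, and the dim probe sets of Chd8 and Chd9 have the widest intervals.

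Chd6, Chd7, Chd8 and Chd9 gave no called difference at any of their 10 tested probe sets. Chd8, a remodeller that binds beta-catenin, came nearest. Its brightest probe set, 1437297_at, read 1525 and 1418 on the control arrays, against 1690 and 1740 after RNAi. The groups do not overlap, and the log2 difference was 0.22 ± 0.080 (SE), with an interval of 0.047 to 0.40 (adjusted p = 0.0905). At 1443900_at the RNAi arrays read 236 and 131 against 119 and 98.8, a log2 difference of 0.70 (adjusted p = 0.148). That difference rests on the first RNAi array: without RNAi replicate 2 it was 1.12 (adjusted p = 0.0190) and without RNAi replicate 1 it was 0.27. The other two Chd8 probe sets had log2 differences of -0.089 and 0.27.

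Chd7, the remodeller mutated in CHARGE syndrome, had log2 differences of -0.088 and -0.18 at its 2 probe sets. Probe set 1448026_at read 381 and 375 on the control arrays, against 410 and 309 after RNAi. The RNAi arrays lie on both sides of the controls, and the interval was -0.44 to 0.27. Probe set 1437745_at read 349 and 392 against 371 and 287, and its interval was -0.54 to 0.18.

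Chd9 had log2 differences below 0 at all 3 of its probe sets. The brightest, 1457672_at, read 1266 and 1294 on the control arrays, against 1176 and 1179 after RNAi. The groups do not overlap there, but the difference was small, at -0.12 with an interval of -0.30 to 0.061 (adjusted p = 0.386). Probe sets 1458078_at and 1441339_at had differences of -0.58 and -0.29, and their groups overlap.

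Chd6 had 1 tested probe set, 1427384_at, with 331 and 329 on the control arrays, against 357 and 350 after RNAi. Both groups were tight, yet the fit borrows spread from probe sets of like brightness, and the interval of the log2 difference was -0.21 to 0.41 (adjusted p = 0.706). The other Chd6 probe set, 1431047_at, was the only one of the 23 under the filter and was not tested. It read 54.3 and 51.0 on the control arrays, against 44.6 and 14.5 after RNAi.

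Over the whole family, 7 of 22 tested probe sets were called at an adjusted p under 0.05, 3 higher and 4 lower, where 14.2% of all tested probe sets were called. Of the 4 lower, 3 belong to Chd4. Without Chd4, 4 of 19 were called, 3 higher and 1 lower, which is 21.1%. Groups that do not overlap were found for 14 of the 22, beside 55.9% of all tested probe sets. Fitted per gene, 5 Chd genes were called by their brightest probe set, where 20.5% of all genes were, and 4 by the mean over their probe sets, where 10.5% were. The median log2 difference was -0.10 over the Chd probe sets, and -0.012 over all tested.

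**Figure D3:**
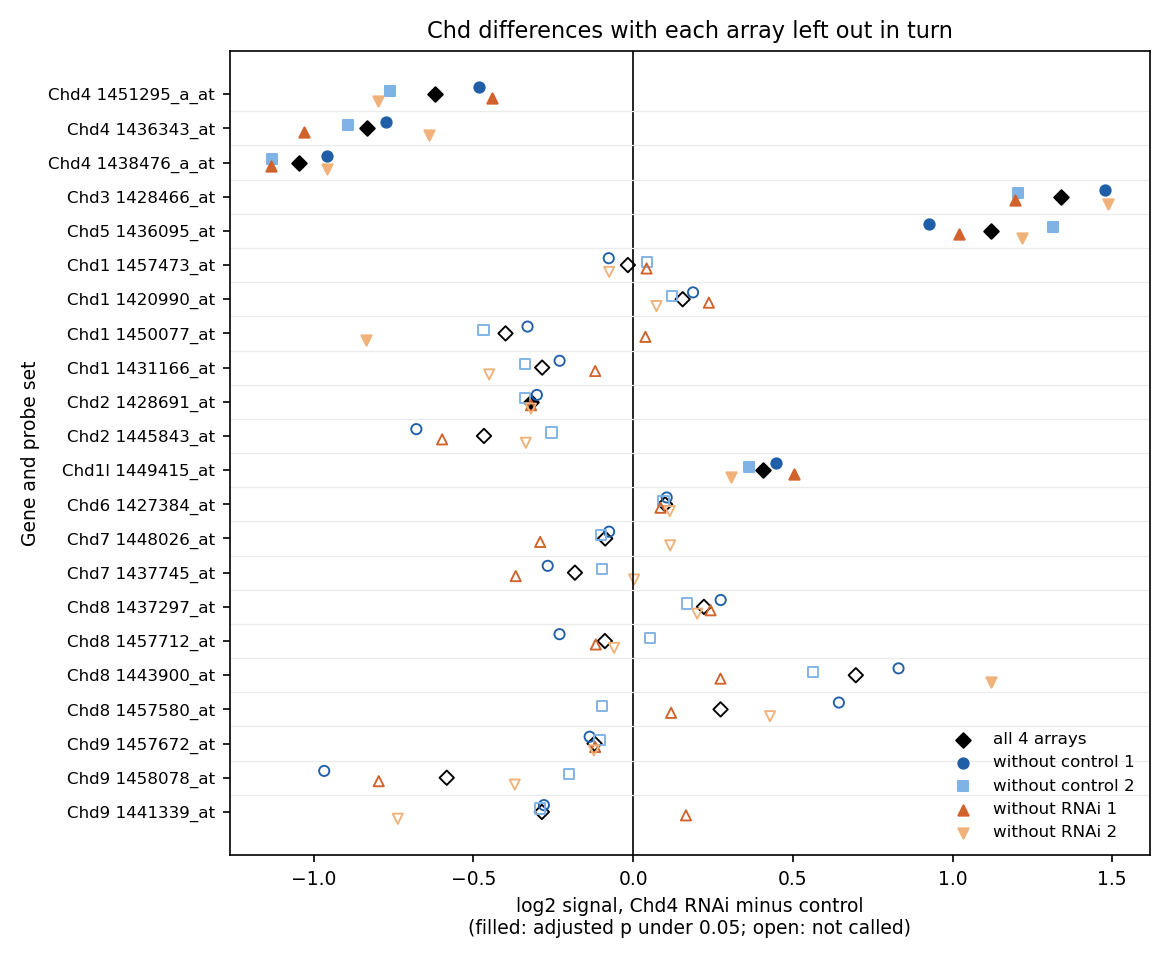
Log2 difference, Chd4 RNAi minus control, of the 22 tested Chd probe sets with all 4 arrays (diamonds) and with each array left out in turn, filled where the adjusted p was under 0.05. Chd4, Chd3, Chd5 and Chd1l stay filled throughout, Chd2 1428691_at is filled only with all 4 arrays, and Chd1 1450077_at and Chd8 1443900_at are filled only without RNAi replicate 2.

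The genes listed as NuRD partners moved in both directions and, at their brightest probe sets, by less than Chd3 and Chd5. Besides NuRD subunit genes the list holds Zmynd8, Sall4, Adnp, Cbx1 and Cbx3, which are not core subunits. Cbx1 and Cbx3 were not called. Each gene is given here by its brightest probe set. Of 17 listed genes 16 had a probe set of their own, all tested. Of these 4 rose and 2 fell, beside 18.1% of 12615 genes called by their brightest probe set (10.3% higher and 7.79% lower). Their median log2 difference was 0.061 and that of all genes tested 0.014. Mta3, a scaffold subunit gene, read 1567 and 1693 on the control arrays, against 2471 and 2554 after RNAi (1.54-fold, adjusted p = 0.000315), but only 1 of its 2 other tested probe sets had the same sign. Zmynd8, which encodes a chromatin reader that associates with NuRD, fell from 1803 and 1835 to 1008 and 865 (adjusted p = 8.23e-05), and 1 of its 4 other tested probe sets had the same sign.

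The deacetylase gene Hdac2 fell 1.25-fold, from 5698 and 5793 to 4402 and 4813 (adjusted p = 0.00605), with both other probe sets of the same sign, while Hdac1 had a log2 difference of -0.055 (adjusted p = 0.645). Sall4, a pluripotency zinc finger gene whose protein binds NuRD, rose by 0.26 on the log2 scale (adjusted p = 0.00663). Mbd3, which ties the deacetylase module to Chd4, and Gatad2a, which links it to the remodeller, were higher at log2 0.35 and 0.22 (adjusted p = 0.0356 and 0.0253). The call of Mbd3 ended without control replicate 2, RNAi replicate 1 or RNAi replicate 2 (adjusted p = 0.251, 0.0804 and 0.0628). That of Gatad2a ended without control replicate 1, control replicate 2 or RNAi replicate 2 (adjusted p = 0.125, 0.0621 and 0.111).

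Among 20 other Snf2-family ATPase genes 19 were tested, and 6 rose and 0 fell by limma (7 and 2 at an unadjusted p under 0.05), beside the same 18.1% of genes. The median log2 difference was 0.084. Hltf, a fork remodeller gene, read 2412 and 2831 on the control arrays, against 3809 and 3784 after RNAi (1.45-fold, adjusted p = 0.00122). Ino80, of the remodeller named after it, and Smarca1, an ISWI ATPase gene, rose 1.39-fold each (adjusted p = 0.00770 and 0.00819). Smarca5, the other ISWI ATPase gene, was 1.16-fold higher, Smarcal1 1.26-fold and Atrx 1.25-fold (adjusted p = 0.0123, 0.0147 and 0.0433). The only other tested probe set of Smarcal1 had the opposite sign, and 4 of 6 others of Atrx had the same sign. Leaving out control replicate 1 ended the calls of Smarca1, Smarca5 and Atrx (adjusted p = 0.05001, 0.0522 and 0.270). Leaving out control replicate 2 ended those of Smarca5 and Smarcal1 (0.0635 and 0.0847), RNAi replicate 1 that of Smarcal1 (0.0596) and RNAi replicate 2 that of Atrx (0.158).

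**Figure D4:**
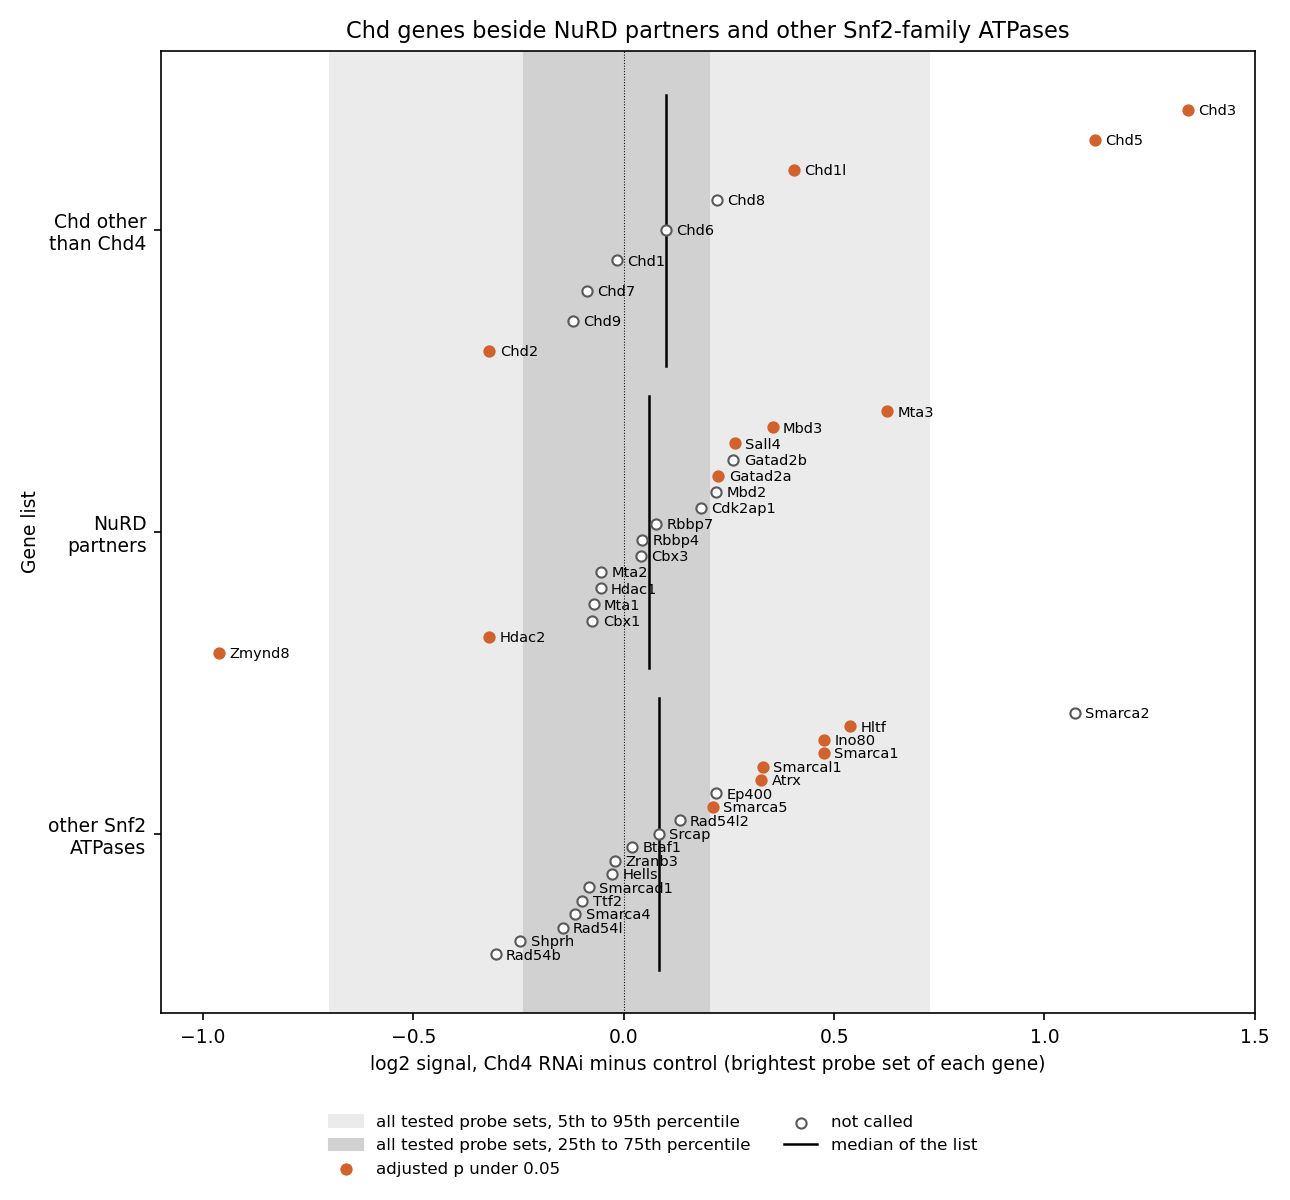
Log2 difference, Chd4 RNAi minus control, at the brightest probe set of each tested gene, for the 9 Chd genes other than Chd4, 16 NuRD partners and 19 other Snf2-family ATPases, filled where the adjusted p was under 0.05, with shading for the spread of all tested probe sets. Chd3, Chd5 and the uncalled Smarca2 (1.07) lie beyond the 95th percentile (0.73) and Zmynd8 beyond the 5th (-0.70), while the medians of the 3 lists lie between 0.061 and 0.10.

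The genes next to the Chd genes were read as well, from the order of genes in RefSeq (GRCm38.p6), taking the nearest protein-coding gene without overlap on each side. This comparison was added after the values were seen. Of 20 neighbours 14 were tested, of which 2 rose and 0 fell by limma (2 and 1 at an unadjusted p under 0.05). These 2 of 14 are no larger a share than the 18.1% called among all genes. Next to Chd5, the ribosomal protein gene Rpl22 read 25964 and 27000 on the control arrays, against 31547 and 28845 after RNAi (adjusted p = 0.0285). That call ended under quantile normalization (log2 0.052, adjusted p = 0.298), and without control replicate 1 (adjusted p = 0.144) or RNAi replicate 1 (adjusted p = 0.132). The neighbour of Chd5 on the other side, Kcnab2, was under the filter. Next to Chd3, Cyb5d1 had a log2 difference of -0.55 (adjusted p = 0.106) and Kcnab3 was under the filter, so no tested neighbour of Chd3 rose. Nop2, beside Chd4, had a log2 difference of 0.16 (adjusted p = 0.185). Tox3, beside Chd9, was higher at log2 0.92 (adjusted p = 0.0382), a call that ended without control replicate 1, RNAi replicate 1 or RNAi replicate 2 (adjusted p = 0.209, 0.109 and 0.0625).

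By Euclidean distance between log2 profiles over the 4 arrays, each centred on its own mean, Kank3, Id4 and Tor4a lay nearest to the brightest Chd4 probe set, at 0.027, 0.048 and 0.056. Because they were picked for this likeness, their falls follow from the selection and are no separate result. Kank3 was called by limma (log2 -0.63, adjusted p = 0.0324), but Id4 and Tor4a were not (adjusted p = 0.366 and 0.169). Id4 was dim, at 85.3 and 70.6 on the control arrays, against 45.7 and 59.3 after RNAi. With 4 arrays such likeness is common, and 3232 probe sets lay within a distance of 0.5.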

How the data were processed

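The deposited values are MAS5 signal, an intensity on a linear scale, for 45101 probe sets on 4 arrays, which the authors computed; MAS5 is named in the submitters' processing notes. Its version, scaling target and detection calls are not given in the sources used here. Groups and replicate numbers came from sample titles, and gene names from the platform annotation, in which 34945 probe sets had 1 symbol, 932 several and 9160 none. The 64 control probe sets were left out. Log2 signals without a pseudocount entered a linear model per probe set in limma 3.58.1 under R 4.3.3. Moderated tests were two-sided, from eBayes with its variance prior following intensity; 2 degrees of freedom were residual and 9.24 came from the prior. The Benjamini-Hochberg adjustment ran over the 27022 probe sets in the top 60% by mean log2 signal (42.4 or more), with a threshold of 0.05. Errors are standard errors of this fit. The number of arrays limits the precision.

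Named genes were all 10 Chd genes and, from the lists of 17 NuRD partners and 20 other Snf2-family ATPases, up to 6 called genes by smallest p. Lists of markers covered embryonic stem cells, fibroblasts, primitive endoderm, trophectoderm and neural cells. Members and lists were chosen with earlier results of these data known. On simulated data 67 of 27022 probe sets were changed 1.5-fold, 67 were changed 2-fold and 66 were changed 4-fold. The fit recovered 19.4%, 40.3% and 78.8% of these changes. It made 9 calls among unchanged probe sets. A probe set that was not called may therefore still differ between the groups. Far fewer probe sets were changed there than the 3847 called on these arrays, which makes the adjustment stricter. The recovered shares are therefore no measure of recovery on these arrays. Alternatives covered the pseudocount, a floor, normalization, filter, variance model, a replicate block, each array left out, a test against a 1.2-fold change and averaging of probe sets. Replicates shared 0 identical values. Promoter windows were searched in Python 3.11.15.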

Additional observations from a re-analysis of the deposited data

How the results depend on the processing

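The 7 calls among the Chd probe sets were kept in number with a pseudocount of 16, quantile normalization, no filter, the top 40% of probe sets (19 Chd probe sets tested) and a robust trend, with 2832 to 3959 probe sets called over the array. Among the NuRD and Snf2 lists the count was 9 with no filter, which ended the calls of Mbd3, Gatad2a and Atrx (adjusted p = 0.0632, 0.0560 and 0.101), and 11 with the robust trend, which ended that of Atrx (0.0746). No filter, which adjusts over 45037 probe sets, also ended those of Tubb3, Lama1, Dppa5a, Rpl22 and Tox3 (0.0626, 0.0608, 0.0609, 0.0920 and 0.0830). Without the intensity trend the counts were 0 for the Chd probe sets, 0 over the array and 0 for the NuRD partners and Snf2-family ATPases (12 with the trend), while 5828 probe sets and 7 Chd probe sets had an unadjusted p under 0.05. With signals under the median (76.0) set to it, which makes many dim signals equal, the counts were 0, 490 and 1, with 8 Chd probe sets at an unadjusted p under 0.05. Against a 1.2-fold change 4 Chd probe sets passed. The cause of these differences was not tested. With 1 array left out the Chd count was 6 to 8, that over the array 2430 to 3535 and that of the NuRD and Snf2 lists 8 to 10. By the mean over its probe sets Chd2 had -0.39 (adjusted p = 0.0786). The replicate block changed no Chd call (7 called) and gave 3635 probe sets over the array and 12 in the lists. It ended the call of Rpl22 (adjusted p = 0.0516). Same-numbered arrays did not deviate together (r = -0.0019 across probe sets), and the labels do not say that the numbers mark pairs. Depth does not apply to arrays. Dim probe sets had the widest intervals.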
